A study of Mus musculus with 9 samples.

Results

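The genes that build phosphatidylcholine and phosphatidylethanolamine were examined in mouse liver tissue by RNA sequencing. The set holds 10 genes, chosen by name as the steps around choline kinase alpha (Chka), out of 55401 genes in the deposited table. All 10 were above the low-count filter, which 15717 genes passed. They are the choline kinases Chka and Chkb, the ethanolamine kinases Etnk1 and Etnk2, the cytidylyl transferases Pcyt1a and Pcyt2, the transferases Chpt1 and Cept1, the methyltransferase Pemt and the phospho-lyase Etnppl.

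Livers came from 3 groups of female mice with 3 livers in each. The growth protocol names strain FVB/N bought at 6 weeks of age, while the characteristics field of the same samples gives C57BL/6. Hepatocellular carcinoma (HCC) was produced by rapid tail vein injection of plasmids for myristoylated AKT under the EF1α promoter and Nras-v12 under the Caggs promoter, carried by a sleeping beauty transposase. The protocol also lists a plasmid for N90-β-catenin, and the series design names RAS/AKT alone. At 1 week after the plasmids, mice received the liver-tropic virus AAV8, either blank (called untreated HCC) or encoding miR-22 (called miR-22-treated HCC), and livers were taken 5 weeks after the plasmids, 4 weeks after the virus. Healthy livers came from wild-type mice with no treatment and no time point, so the tumor, the plasmids, the injection and the virus cannot be told apart in any comparison with them. Each library was made from bulk tissue. The paper names the source both as livers of HCC mice and as HCCs, and does not give the share of surrounding liver. In such samples fewer cells of a type and less RNA per cell cannot be told apart. The paper also reports a far lower liver-to-body weight ratio in miR-22-treated than in untreated mice of this model. Both HCC groups therefore differ in tumor load as well as in treatment.

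Phosphatidylcholine, the main phospholipid of animal membranes, is made from choline by the CDP-choline pathway: a kinase adds phosphate, a cytidylyl transferase adds CMP, and a transferase joins the head group to diacylglycerol. A parallel CDP-ethanolamine pathway makes phosphatidylethanolamine. The liver has in addition an abundant methyltransferase, PEMT, which turns phosphatidylethanolamine into phosphatidylcholine with methyl groups from S-adenosylmethionine. The cytidylyl transferase is usually the slow step, and phosphocholine made by choline kinase alpha is raised in many tumors.

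Because miR-22 was the treatment, the sequences that could pair with it were read first. Its mature strand in RefSeq (GRCm38.p6, chr11:75463772-75463793, plus strand) is shown with the seed, bases 2 to 8, in capitals. The second line is the stretch of the 3′ UTR of Chka that holds the complement of the seed (GGCAGCT, in capitals), which takes up bases 550 to 556 of the 973-base 3′ UTR of its canonical GENCODE transcript.
mmu-miR-22-3p: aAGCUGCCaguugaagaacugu
Chka 3′ UTR, bases 528 to 557: acttgactgtgggtatgcaggtGGCAGCTg

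Of the 10 genes, Chka alone held this 7-base match in the 3′ UTR of its canonical transcript. The same letters occurred in 16.9% of the 13550 tested genes with a 3′ UTR, whose median length was 1341 bases. The shorter 6-base match GCAGCT, which lies inside the longer one, was found 4 times each in Etnk2 and Etnppl, 2 times each in Chka and Pcyt2, 1 time each in Etnk1 and Pcyt1a, and not in Cept1, Chkb, Chpt1 or Pemt. It occurred in 41.2% of those 13550 genes. A match of letters is a description and not evidence of binding.

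The study names Chka as a lipid metabolism gene that the hypoxia factor HIF1A is known to suppress. The 250 bases before each RefSeq transcription start were therefore searched on both strands for ACGTG and GCGTG, the letters of hypoxia response elements. The search also covered CACGTG, which contains ACGTG. Promoter windows were given for 9 of the 10 genes, not for Pcyt2. The window of Chka held 1 GCGTG, 68 to 64 bases before the start, shown in capitals with its flanks (GRCm38.p6, chr19:3851693-3851721, plus strand).
Chka promoter: aatgggaaagcgGCGTGgcgagggtggcg

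GCGTG stood once in each window of Etnk1 and Pcyt1a as well, and 1 of the promoter windows of Cept1 held ACGTG 2 times. Across 32851 promoter windows of 250 bases, GCGTG was present in 28.2%, ACGTG in 16.6% and CACGTG in 6.02%. None of the 9 genes with a window had CACGTG there.

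Levels are given as CPM, counts per 1000000 counts of the library, scaled by TMM, a factor that corrects for library composition, and differences as log2 fold changes ± SE from edgeR's quasi-likelihood test. A gene was called changed at a Benjamini-Hochberg adjusted p under 0.05 together with a fold over 1.5. Libraries held 16664659 to 23908392 counts, and TMM factors ran from 0.865 to 1.22, lowest in healthy and highest in untreated HCC livers. The summed level of 8 hepatocyte markers, defining for liver, was 122653 to 127525 CPM in healthy livers, 49422 to 61593 CPM in untreated HCC and 74401 to 92208.5 CPM in miR-22-treated HCC. Akt1 averaged 105 CPM in healthy livers, 1486 CPM in untreated HCC and 858 CPM in miR-22-treated HCC, and Nras 28.6, 69.9 and 54.6 CPM. The host gene of miR-22, Mir22hg, averaged 61.9, 18.1 and 30.8 CPM in the same order. Whether the virus adds to Mir22hg was not tested, and mature miR-22 was not measured in these libraries.

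In untreated HCC, 6 of the 10 genes differed from healthy liver, 1 higher (Chka) and 5 lower (Pemt, Etnk2, Pcyt2, Etnppl and Cept1). Over all tested genes 40.8% were called in this comparison, 22.7% higher and 18.1% lower. The median log2 change of the 10 genes was -0.60, against 0.012 over all genes. In miR-22-treated against untreated HCC, 5 genes were called, Chka lower and Etnk2, Pemt, Pcyt2 and Chpt1 higher, where 13.8% of all genes were called, 8.32% higher and 5.47% lower. The median change was 0.48, against 0.0020 over all genes. Treated against healthy livers gave 2 calls, Chka higher and Pemt lower, beside 24% of all genes, 16.9% higher and 7.05% lower, with a median of -0.28 against 0.022. All 3 comparisons share groups, so their values stand side by side and are not independent of each other.

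**Figure D1:**
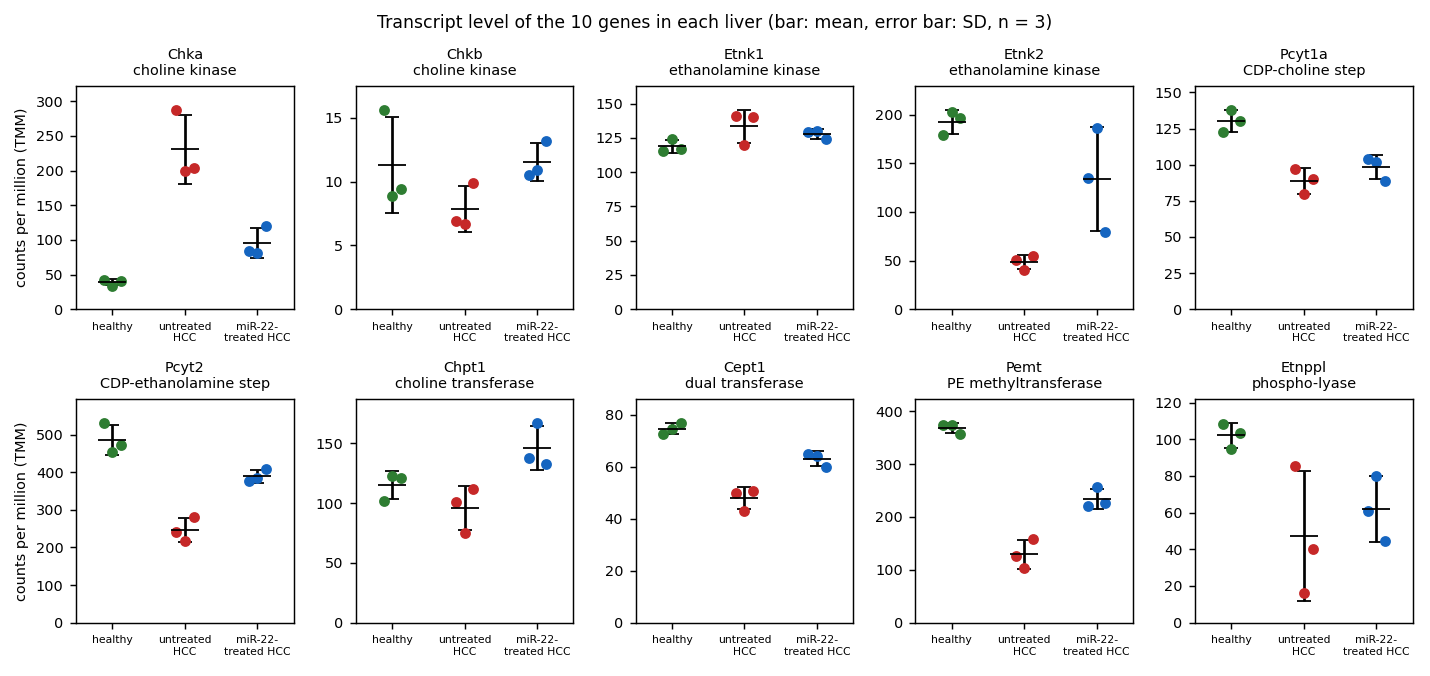
Level of each of the 10 genes (y axis, TMM-scaled CPM, linear and starting at 0) in each liver, by group on the x axis; points are livers, horizontal bars are means and error bars are SD (n = 3). Chka is highest in the 3 untreated HCC livers (199.7 to 288) and Pemt and Etnk2 are lowest there, with miR-22-treated livers between the other groups on average.

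Scaling mattered for the split between higher and lower. With total counts alone in place of TMM, the median log2 change of all genes moved to 0.43 in untreated HCC against healthy liver, -0.23 in treated against untreated HCC and 0.21 in treated HCC against healthy liver, so changes there are read relative to those shifts. Under that scaling the calls over all genes were 5986 higher and 1492 lower, 835 and 2164, and 3408 and 593, in place of 3575 and 2842, 1308 and 859, and 2664 and 1108. The calls among the 10 genes became 2 higher and 2 lower in untreated HCC against healthy liver, 2 higher and 1 lower in treated against untreated HCC, and 1 higher in treated HCC against healthy liver.

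Chka (ENSMUSG00000024843.15, GRCm39 chr19:3901743-3944381, plus strand) encodes the kinase that phosphorylates choline, and in many cells also ethanolamine. Healthy livers had 41.9, 33.8 and 41.0 CPM, untreated HCC livers 288, 199.7 and 204 CPM, and miR-22-treated HCC livers 84.1, 81.3 and 120.4 CPM. The 3 groups did not overlap, with every untreated HCC liver above every treated one and every treated one above every healthy one. The mean rose 5.92-fold in untreated HCC (log2 fold change 2.57 ± 0.18, adjusted p = 2.33e-07). It was 2.42-fold lower in miR-22-treated than in untreated HCC (log2 fold change -1.27 ± 0.17, adjusted p = 0.000517) and still 2.45-fold above healthy liver (1.29 ± 0.18, adjusted p = 0.000135). These 3 calls held in all 16 alternative analyses, with log2 values of 2.38 to 2.99, -1.50 to -1.08 and 1.09 to 1.49. The paper, from its RNA sequencing, reports Chka as reduced in HCC livers and that change as reversed by miR-22. In the deposited counts both of these directions were the other way, and the reason was not tested.

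Chkb (ENSMUSG00000022617.15, GRCm39 chr15:89310563-89314139, minus strand), the second choline kinase, was the scarcest of the 10 genes, with 141 to 278 counts per library. Its level was 15.7, 8.88 and 9.45 CPM in healthy livers, 6.94, 6.72 and 9.90 CPM in untreated HCC, and 10.52, 10.9 and 13.2 CPM in treated HCC. Healthy and untreated livers overlapped, while each treated liver lay above each untreated one. No comparison reached a call, with log2 fold changes of -0.52 ± 0.22 (adjusted p = 0.0645) in untreated HCC against healthy liver and 0.55 ± 0.22 (adjusted p = 0.0922) in treated against untreated HCC. The first became a call without healthy replicate 2 (-0.68), healthy replicate 3 (-0.65) or untreated replicate 4 (-0.73), and the second without untreated replicate 4 (0.76). Exons of Chkb share 1552 bases with the readthrough gene Gm44502, which had 0 to 3 counts, so a small number of its reads may be assigned to either gene. They also share 458 bases with C730034F03Rik on the other strand, in libraries without strand information. That gene had 9 to 20 counts, up to 10.6% of the count of Chkb in the same library.

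Etnk1 (ENSMUSG00000030275.6, GRCm39 chr6:143112947-143178033, plus strand), one of the ethanolamine kinases, had nearly level values. They ran from 115 to 125 CPM in healthy livers, 119.6 to 141 CPM in untreated HCC and 124 to 130.2 CPM in treated HCC, and all 3 groups overlapped. Its log2 fold changes were 0.17 ± 0.090 in untreated HCC against healthy liver (adjusted p = 0.129) and -0.063 ± 0.090 in treated against untreated HCC (adjusted p = 0.659). With total counts alone the first value was 0.59 and was called.

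Etnk2 (ENSMUSG00000070644.13, GRCm39 chr1:133291276-133310143, plus strand) is an ethanolamine kinase known from liver, kidney and reproductive tissue. It moved opposite to Chka. Healthy livers had 179, 203 and 197 CPM, untreated HCC livers 50.9, 40.6 and 54.4 CPM, and treated HCC livers 135, 186 and 79.5 CPM. Every untreated value was below every other value, and the treated livers spread from near the untreated group into the healthy range. Etnk2 was 3.96-fold lower in untreated HCC than in healthy liver (log2 fold change -1.99 ± 0.23, adjusted p = 1.33e-05) and 2.74-fold higher in treated than in untreated HCC (1.46 ± 0.23, adjusted p = 0.0011). Between treated and healthy livers the difference was -0.53 ± 0.23 (adjusted p = 0.0843), which became a call at -0.85 without treated replicate 3. The neighbouring gene Sox13 shares 105 exon bases with Etnk2 on the other strand, with 124 to 320 counts.

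Within the treated group, Chka and Etnk2 stood at opposite ends in the same livers. Treated replicate 4 had the highest Chka (120.4 CPM), the lowest Etnk2 (79.5 CPM), the highest Akt1 (1104 CPM), the lowest hepatocyte marker sum (74401 CPM) and the highest level of the cholangiocyte marker Spp1 (2642 CPM). Treated replicate 3 stood at the other end in each, with 81.3 CPM of Chka, 186 CPM of Etnk2, 671 CPM of Akt1, a hepatocyte marker sum of 92208.5 CPM and 1527 CPM of Spp1. Chkb did not share that order, with 10.52, 10.9 and 13.2 CPM in treated replicates 2, 3 and 4. With 3 livers this is given as values only, and the part of Akt1 or of the markers in the spread was not tested.

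Ratios of 2 genes within a library do not depend on how libraries are scaled. The log2 ratio of Chka to Chkb counts was 1.42, 1.92 and 2.11 in healthy livers, 5.37, 4.88 and 4.36 in untreated HCC, and 2.99, 2.89 and 3.18 in treated HCC, with no overlap between groups. The ratio was 8.31-fold higher in untreated HCC than in healthy liver and 3.60-fold lower in treated than in untreated HCC. The Chka to Etnk2 ratio went from -2.31 ± 0.25 (SD, n = 3) in healthy livers to 2.23 ± 0.30 in untreated HCC, a 23.4-fold shift, and was -0.43 ± 0.92 in treated HCC. In the pair of ethanolamine kinases, the log2 ratio of Etnk1 to Etnk2 was -0.70 ± 0.058 in healthy livers, 1.46 ± 0.095 in untreated HCC and 0.021 ± 0.58 in treated HCC. With 3 livers against 3 an exact two-sided permutation test cannot go below p = 0.1, the value that each of these comparisons had. After adjustment over the 8 ratios examined, exact p was 0.114 in untreated HCC against healthy liver, 0.16 in treated against untreated HCC and 0.133 in treated HCC against healthy liver.

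Levels of different genes were compared as CPM per kb of transcript, using the median length of each gene's CCDS-supported transcripts. On that scale Chka made up 72.0% ± 5.11 (SD, n = 3) of the choline kinase transcripts in healthy livers, 95.4% ± 1.52 in untreated HCC and 85.7% ± 1.23 in treated HCC. Etnk2 made up 70.4% ± 0.844 of the ethanolamine kinase transcripts in healthy livers, 34.7% ± 1.499 in untreated HCC and 58.9% ± 9.73 in treated HCC. Of the 4 kinases together, the choline kinases held 27.3% ± 4.27, 76.3% ± 3.01 and 49.0% ± 11.2. The kinase transcripts of healthy liver were thus mostly for ethanolamine, and those of untreated HCC mostly for choline, by the names of the genes.

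**Figure D2:**
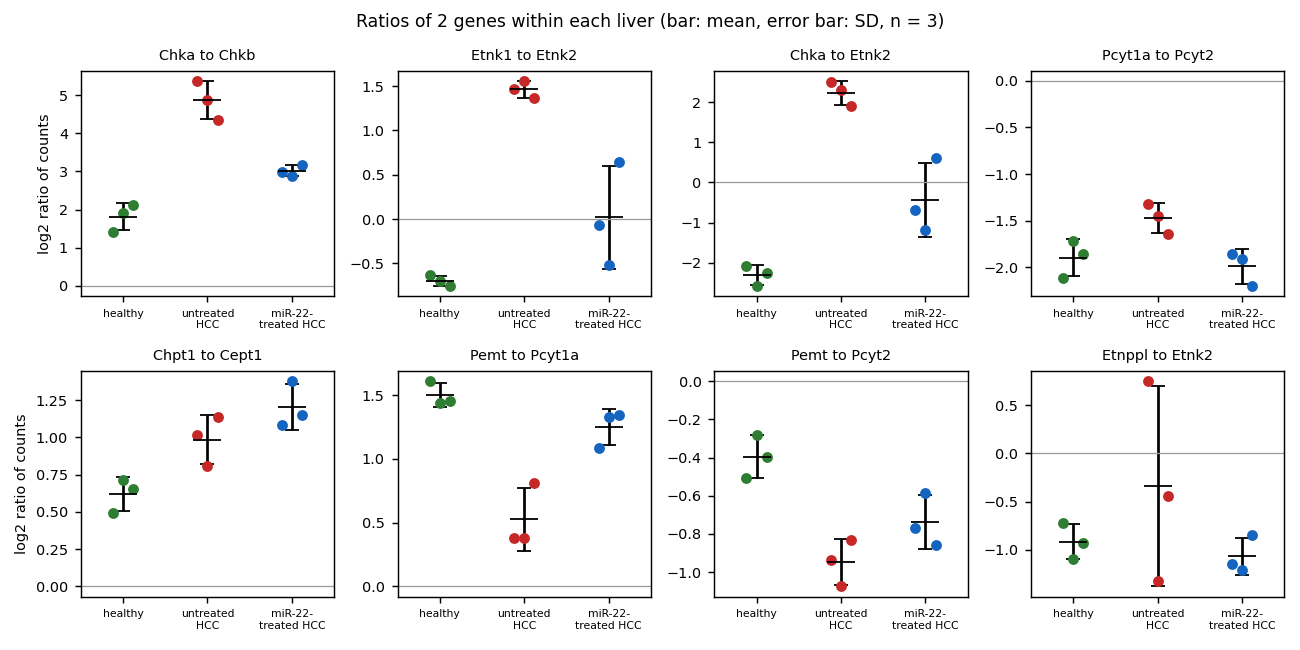
Log2 ratio of the counts of 2 genes in the same liver (y axis) for 8 pairs, by group on the x axis; points are livers, horizontal bars means and error bars SD (n = 3), and the grey line marks equal counts. The Chka to Chkb ratio separates the 3 groups (means 1.82, 4.87 and 3.02), and Etnk1 to Etnk2 changes sign between healthy liver (-0.70) and untreated HCC (1.46).

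Cytidylyl transferases form CDP-choline and CDP-ethanolamine. Pcyt1a (ENSMUSG00000005615.15, GRCm39 chr16:32249426-32294242, plus strand), which encodes the main CDP-choline enzyme, had 123, 138 and 131 CPM in healthy livers, 97.0, 79.5 and 90.1 CPM in untreated HCC, and 104, 102 and 89.0 CPM in treated HCC. Healthy livers were above all others, and both HCC groups overlapped. The log2 fold change in untreated HCC was -0.55 ± 0.10 with an adjusted p of 0.000444, but at 1.47-fold it was under the fold threshold. Leaving out healthy replicate 1 or untreated replicate 2 brought it past the threshold, at -0.61 and -0.62. In treated against untreated HCC it was 0.15 ± 0.10 (adjusted p = 0.321), a sign that turned to -0.090 with total counts alone.

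Pcyt2 (ENSMUSG00000025137.15, GRCm39 chr11:120500518-120508813, minus strand) encodes the enzyme of CDP-ethanolamine synthesis and was one of the most abundant of the 10 genes. Healthy livers had 532, 455 and 472 CPM, untreated HCC livers 242, 218 and 282 CPM, and treated HCC livers 376, 384 and 409 CPM. The groups did not overlap, in the order healthy, treated, untreated. Pcyt2 was 1.97-fold lower in untreated HCC than in healthy liver (log2 fold change -0.98 ± 0.12, adjusted p = 1.44e-05) and 1.58-fold higher in treated than in untreated HCC (0.66 ± 0.12, adjusted p = 0.0019). The latter sits near the fold threshold and fell under it without untreated replicate 3 (0.57). With total counts alone the first value was -0.56 and the second 0.43, both under the fold threshold.

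Pemt (ENSMUSG00000000301.16, GRCm39 chr11:59861440-59950424, minus strand) encodes the methyltransferase that gives the liver its second route to phosphatidylcholine. Its level was 374, 374 and 358 CPM in healthy livers, 126, 104 and 158 CPM in untreated HCC, and 220.5, 256 and 225 CPM in treated HCC. No group overlapped another. Pemt was 2.85-fold lower in untreated HCC (log2 fold change -1.51 ± 0.14, adjusted p = 1.71e-06), 1.81-fold higher in treated than in untreated HCC (0.85 ± 0.14, adjusted p = 0.00117) and 1.57-fold lower in treated HCC than in healthy liver (-0.66 ± 0.14, adjusted p = 0.00249). The first 2 calls held in all 16 alternatives, and the last was lost with total counts alone, at -0.47.

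The balance of the methylation route and the CDP-choline route was read as the log2 ratio of Pemt to Pcyt1a counts. It was 1.61, 1.44 and 1.45 in healthy livers, 0.38, 0.38 and 0.81 in untreated HCC, and 1.08, 1.33 and 1.34 in treated HCC. Untreated livers were below all others, by 1.97-fold against healthy liver on the mean (exact p = 0.1, the smallest possible), and treated livers were 1.65-fold above untreated ones (exact p = 0.1). Pcyt1a to Pcyt2 was 1.34-fold higher in untreated HCC than in healthy liver and 1.43-fold lower in treated than in untreated HCC, with no overlap in either comparison and the same exact p of 0.1.

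Transferases join the CDP-activated head group to diacylglycerol. Chpt1 (ENSMUSG00000060002.14, GRCm39 chr10:88288348-88340029, minus strand) encodes the choline-specific enzyme and had 102, 123 and 121 CPM in healthy livers, 101, 75.4 and 112 CPM in untreated HCC, and 138, 167 and 133 CPM in treated HCC. Treated livers were above all others, while healthy and untreated livers overlapped. Chpt1 was 1.52-fold higher in treated than in untreated HCC (log2 fold change 0.60 ± 0.14, adjusted p = 0.0095). That value lies just past the fold threshold, and 6 of 16 alternatives put it below, at 0.37 to 0.58, among them DESeq2 (0.58) and leaving out untreated replicate 3 (0.45) or treated replicate 3 (0.50). In untreated HCC against healthy liver its log2 fold change was -0.26 ± 0.14 (adjusted p = 0.135), and 0.15 with total counts alone.

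Cept1 (ENSMUSG00000040774.15, GRCm39 chr3:106409424-106455737, minus strand) encodes the transferase that accepts both head groups. Healthy livers had 72.6, 74.6 and 76.9 CPM, untreated HCC livers 49.9, 43.1 and 50.8 CPM, and treated HCC livers 65.1, 64.3 and 59.9 CPM, without overlap between groups. It was 1.56-fold lower in untreated HCC (log2 fold change -0.64 ± 0.086, adjusted p = 4.21e-05), a call lost without untreated replicate 3 (-0.57) and with total counts alone (-0.22). The difference of 0.40 ± 0.086 in treated against untreated HCC passed the p threshold alone (adjusted p = 0.00629). Cept1 shares 1018 exon bases with Dram2 and 924 with Dennd2d, both on the other strand, and the libraries carry no strand information. Dram2 had 970 to 1310 counts, up to 107% of the count of Cept1 in the same library, and averaged 67.7, 48.4 and 56.9 CPM in healthy, untreated and treated livers, so reads of the shared bases cannot be told apart and the values of Cept1 are uncertain.

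The share of Chpt1 in the transferase transcripts, per kb, was 67.8% ± 1.78 (SD, n = 3) in healthy livers, 73.1% ± 2.29 in untreated HCC and 75.9% ± 1.93 in treated HCC. The counts ratio of Chpt1 to Cept1 was 1.29-fold higher in untreated HCC than in healthy liver, with no overlap, and overlapped between the HCC groups (1.16-fold, exact p = 0.2). The share and the ratio both use Cept1 and carry its uncertainty from the reads shared with Dram2. The share also depends on the transcript lengths chosen.

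Etnppl (ENSMUSG00000019232.14, GRCm39 chr3:130411097-130431441, plus strand) encodes the phospho-lyase that degrades phosphoethanolamine and so draws on the product of the ethanolamine kinases. Its level was 108, 94.9 and 103 CPM in healthy livers, 85.7, 16.2 and 40.0 CPM in untreated HCC, and 61.0, 80.2 and 44.2 CPM in treated HCC. Every HCC liver was below every healthy one, and the untreated livers differed among themselves more than for any other of the 10 genes, with a coefficient of variation of 74.7%. The log2 fold change was -1.11 ± 0.41 in untreated HCC against healthy liver (adjusted p = 0.034) and 0.39 ± 0.41 in treated against untreated HCC (adjusted p = 0.544). The first call was lost in 8 of 16 alternatives, among them DESeq2. Without untreated replicate 3 it was -0.70 and without untreated replicate 2 it was -1.86, and the second value was -0.026 and, as a call, 1.13 in the same fits.

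**Figure D3:**
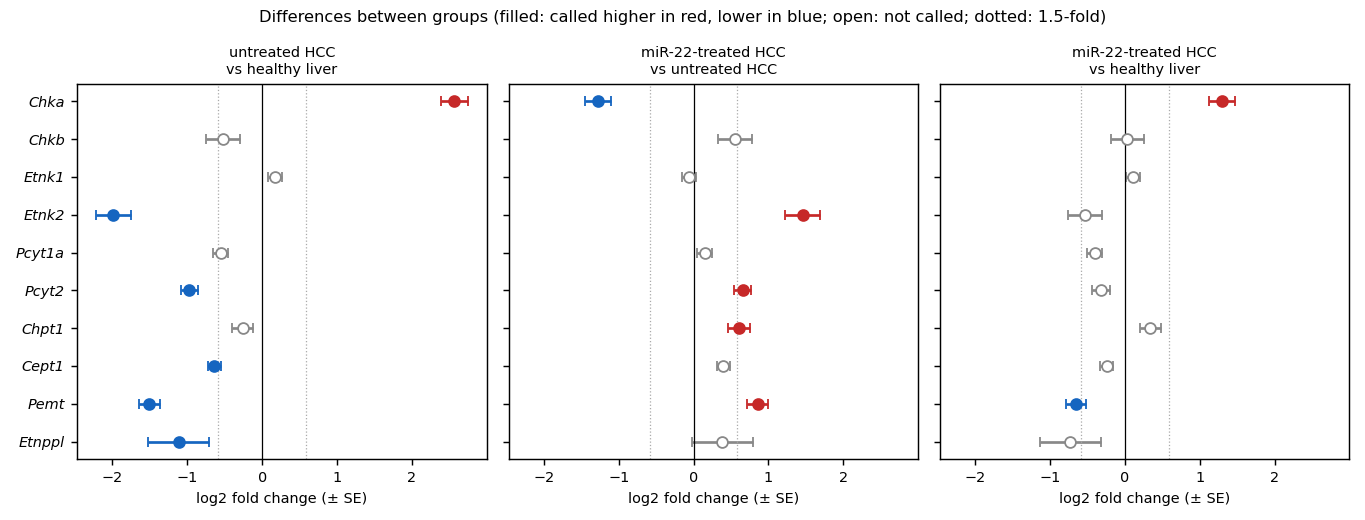
Log2 fold change (x axis) ± SE of each of the 10 genes (y axis) in the 3 comparisons, with filled red points for genes called higher, filled blue for genes called lower, open grey for genes not called, and dotted lines at 1.5-fold. Chka lies at 2.57 and -1.27 in the first 2 comparisons, opposite in sign to Etnk2 (-1.99 and 1.46), Pemt (-1.51 and 0.85) and Pcyt2 (-0.98 and 0.66).

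Ordered by CPM per kb, Pemt and Pcyt2 had the highest mean in each group and Chkb the lowest, while the places between them differed. In healthy livers Pemt (387 ± 9.84, SD, n = 3) and Pcyt2 (214 ± 17.7) were followed by Chpt1 (52.7 ± 5.27) and Etnk2 (43.8 ± 2.79). Cept1, Pcyt1a and Etnppl lay within 21.8 to 24.9, each overlapping its neighbour in the order, and Etnk1 (18.4 ± 0.779), Chka (16.8 ± 1.92) and Chkb (6.64 ± 2.20) came last. In untreated HCC, Chka was in place 3, at 99.4 ± 21.4 CPM per kb, not separable by its spread from Pcyt2 (109 ± 14.2) or Pemt (136 ± 28.9), and Etnk2 was in place 8, at 11.05 ± 1.62. In treated HCC the order was Pemt (246 ± 20.3), Pcyt2 (172 ± 7.63), Chpt1 (66.8 ± 8.45) and Chka (41.1 ± 9.40), with Etnk2 next at 30.4 ± 12.1 and overlapping Chka in its spread. These per-length levels rest on annotated lengths and not on the lengths used when the reads were counted. They also depend on which transcripts are taken. The canonical transcripts are 10860 bases long for Cept1 and 4957 for Chpt1, against the medians used of 2999 and 2185. With canonical lengths both genes would stand lower, so the places of Chpt1 and Cept1 and the last place of Chkb are not firm.

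All 8 hepatocyte markers were lower in untreated HCC than in healthy liver, by a median log2 change of -1.26, and 5 of 8 were higher in treated than in untreated HCC, by a median of 0.77. With total counts alone, 6 of 8 were lower and 3 of 8 higher. Their summed level changed by -1.19, 0.61 and -0.58 on the log2 scale in the 3 comparisons, beside -1.51, 0.85 and -0.66 for Pemt, -1.99, 1.46 and -0.53 for Etnk2 and -0.98, 0.66 and -0.32 for Pcyt2. The same values were -0.64, 0.40 and -0.24 for Cept1, -0.55, 0.15 and -0.41 for Pcyt1a and -0.26, 0.60 and 0.34 for Chpt1. Chka (2.57, -1.27 and 1.29) had the sign opposite to that of the hepatocyte marker sum in each comparison. So did Etnk1 (0.17, -0.063 and 0.11), which was not called in any of them. Chkb had -0.52, 0.55 and 0.033, and Etnppl -1.11, 0.39 and -0.73. No hepatocyte marker was at 0 in any group. The 5 cholangiocyte markers summed to 29.4 to 41.9 CPM in healthy livers, 3324 to 6213 CPM in untreated HCC and 1562 to 2700.4 CPM in treated HCC, with 4 of 5 higher in untreated HCC and 3 of 5 lower with miR-22. Spp1 (osteopontin) made up the larger part of that sum in each group and nearly all of it in HCC, at a mean of 26.8, 4620.3 and 2017 CPM, and the other 4 markers together had 5.66 to 9.93 CPM in healthy livers, 85.1 to 137 CPM in untreated HCC and 34.8 to 58.5 CPM in treated HCC. Krt19, a keratin that defines bile duct cells, averaged 2.15, 3.96 and 3.86 CPM and was not called. The 6 stellate cell markers summed to 84.5 to 95.8, 414 to 504 and 244 to 338 CPM, with 4 higher and 1 lower in untreated HCC. Their part in the values of the 10 genes was not tested.

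The 5 neutrophil markers summed to 1.64 to 4.46 CPM in healthy livers, 15.95 to 21.0 CPM in untreated HCC and 14.3 to 22.1 CPM in treated HCC, with 1 of the 5 at 0 in all healthy and in all untreated livers. The 7 lymphocyte markers lay at 4.83 to 8.37 CPM across all livers, and the groups overlapped. The 5 macrophage markers summed to 241.5 to 294 CPM in healthy livers, 224 to 257 CPM in untreated HCC and 278 to 292 CPM in treated HCC, so the untreated and treated livers did not overlap, and 1 of 5 was called higher in untreated HCC than in healthy liver. The 5 endothelial markers summed to 244 to 326, 174 to 214 and 204 to 274 CPM, without overlap between healthy and untreated livers, and 2 of 5 were lower in untreated HCC (1 higher and none lower with total counts alone). The part of these cells in the values of the 10 genes was not tested.

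The steps around the 10 genes were described with 9 lists of 104 genes, of which 103 were in the table and 98 were tested. In untreated HCC against healthy liver 18 were higher and 39 lower, 18.4% and 39.8% of those tested, where 22.7% and 18.1% of all genes were. In treated against untreated HCC 17 were higher and 7 lower, 17.3% and 7.14%, beside 8.32% and 5.47% of all genes. In treated HCC against healthy liver 14 were higher and 16 lower, 14.3% and 16.3%, beside 16.9% and 7.05% of all genes. With total counts alone, the 3 comparisons gave 25 higher and 20 lower (25.5% and 20.4%, beside 38.1% and 9.49% of all genes), 12 and 12 (12.2% each, beside 5.31% and 13.8%), and 17 and 10 (17.3% and 10.2%, beside 21.7% and 3.77%). In untreated HCC against healthy liver the median of choline oxidation and the methionine cycle, less that of all genes, was -0.73 with TMM and -0.74 with total counts alone, and that of phosphatidate and diacylglycerol supply was -0.34 with either.

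The remaining enzymes of the CDP pathways are Pcyt1b, a second CDP-choline cytidylyl transferase, and Selenoi, the ethanolamine-specific transferase. Pcyt1b averaged 1.17 ± 0.129 CPM (SD, n = 3) in healthy livers, 10.03 ± 3.57 CPM in untreated HCC and 4.51 ± 0.785 CPM in treated HCC. It rose in untreated HCC by a log2 fold change of 3.08 ± 0.29 (adjusted p = 1.89e-06) and was lower in treated than in untreated HCC (-1.15 ± 0.24, adjusted p = 0.00565), the same order of groups as Chka and unlike Pcyt1a, whose level was far higher throughout. Selenoi averaged 89.1, 78.3 and 75.1 CPM and was not called in any comparison.

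Among 12 transporters of choline, ethanolamine or betaine, 9 were tested, with 2 higher and 3 lower in untreated HCC (3 and 1 with total counts alone). The choline transporter-like gene Slc44a3 averaged 10.4, 35.0 and 23.0 CPM in healthy, untreated and treated livers, and was called higher in untreated HCC (log2 fold change 1.75 ± 0.14, adjusted p = 5.32e-07) and lower with miR-22 (-0.60 ± 0.13, adjusted p = 0.00615). Slc6a12, a transporter of betaine, ran the other way at 145, 36.8 and 73.0 CPM, with log2 fold changes of -1.98 ± 0.18 (adjusted p = 1.38e-06) and 0.98 ± 0.17 (adjusted p = 0.00197).

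Choline oxidation and the methionine cycle, which make and use the methyl groups that PEMT needs, were lower in untreated HCC for 8 of 14 genes and higher for 1 (6 and 2 with total counts alone). With miR-22 treatment 5 of 14 were higher and 1 lower. Gnmt, the glycine methyltransferase that consumes S-adenosylmethionine, averaged 1318 ± 156 CPM (SD, n = 3) in healthy livers, 149 ± 41.0 CPM in untreated HCC and 449 ± 118 CPM in treated HCC, log2 fold changes of -3.14 ± 0.23 (adjusted p = 2.79e-07) and 1.59 ± 0.22 (adjusted p = 0.000531). Ahcy, which removes the S-adenosylhomocysteine left by methylation, averaged 728 ± 53.8, 121 ± 19.2 and 366 ± 61.9 CPM, log2 fold changes of -2.59 ± 0.15 (adjusted p = 5.97e-08) and 1.60 ± 0.15 (adjusted p = 4.72e-05). Both were also lower in treated HCC than in healthy liver, at -1.55 and -0.99.

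In the phosphatidylserine branch, which feeds phosphatidylethanolamine by another route, 1 of 3 genes was called, and none with total counts alone. Ptdss1, a phosphatidylserine synthase, averaged 61.2, 37.9 and 44.7 CPM and was lower in untreated HCC (log2 fold change -0.69 ± 0.082, adjusted p = 1.43e-05). Its counterpart Ptdss2 averaged 16.8, 13.9 and 12.4 CPM and was not called.

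Of 17 genes that supply phosphatidate and diacylglycerol, 4 were higher and 7 lower in untreated HCC, and 4 were higher and 1 lower in treated than in untreated HCC. With total counts alone these were 6 and 4, and 2 and 4. Lpin1, a phosphatidate phosphatase that makes diacylglycerol, had 133, 138 and 142 CPM in healthy livers, 54.5, 57.2 and 58.5 CPM in untreated HCC, and 171, 727 and 276 CPM in treated HCC, so treated replicate 3 stood far above the others. Its log2 fold change in treated against untreated HCC was 2.78 ± 0.39 (adjusted p = 0.000603). Lpin2, a second such phosphatase, averaged 317, 106 and 466 CPM, with log2 fold changes of -1.58 ± 0.21 (adjusted p = 3.29e-05) and 2.14 ± 0.21 (adjusted p = 7.82e-05). Dgat2, which diverts diacylglycerol into triglyceride, averaged 819, 302 and 481 CPM and changed by -1.44 ± 0.12 and 0.67 ± 0.12, while Plpp2, a lipid phosphate phosphatase, was higher in untreated HCC by 1.48 ± 0.15 (12.02, 33.6 and 25.7 CPM).

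Lysophospholipid reacylation, which exchanges fatty chains on finished phospholipids, had 8 tested genes, 4 higher and 1 lower in untreated HCC and none called with miR-22 (4 and 0, and 1 lower, with total counts alone). Mboat1 averaged 0.454, 4.79 and 3.09 CPM and rose by 3.41 ± 0.48 on the log2 scale, from few counts. Lclat1 fell by 0.87 on the log2 scale, from 72.6 to 39.8 CPM. Lpcat3, the main acyltransferase of liver phosphatidylcholine, averaged 97.8, 69.2 and 98.8 CPM, and its changes of -0.50 and 0.51 passed the p threshold (adjusted p = 0.000539 and 0.0022) without reaching 1.5-fold.

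Phospholipid breakdown held 23 tested genes, 5 higher and 7 lower in untreated HCC, and 3 higher and 3 lower with miR-22 (7 and 2, and 1 and 4, with total counts alone). Pld1, a phospholipase D that releases choline from phosphatidylcholine, averaged 12.1 ± 0.720 CPM (SD, n = 3) in healthy livers, 86.2 ± 20.5 CPM in untreated HCC and 41.4 ± 8.78 CPM in treated HCC, log2 fold changes of 2.83 ± 0.19 (adjusted p = 1.43e-07) and -1.05 ± 0.17 (adjusted p = 0.00125). Gpcpd1, which splits glycerophosphocholine, averaged 104 ± 9.74, 25.1 ± 2.37 and 95.6 ± 24.5 CPM, with log2 fold changes of -2.04 ± 0.16 (adjusted p = 4.53e-07) and 1.93 ± 0.16 (adjusted p = 2.02e-05).

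Genes of phosphatidylcholine transfer and export were lower in untreated HCC for 7 of 12 (4 with total counts alone) and higher for none, and 2 of 12 were higher with miR-22. Lcat, the plasma enzyme that esterifies cholesterol from phosphatidylcholine, averaged 424, 134 and 264 CPM and changed by -1.66 ± 0.15 and 0.98 ± 0.15. Lipc, the hepatic lipase, averaged 277, 75.7 and 176 CPM and changed by -1.87 ± 0.18 and 1.22 ± 0.17.

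**Figure D4:**
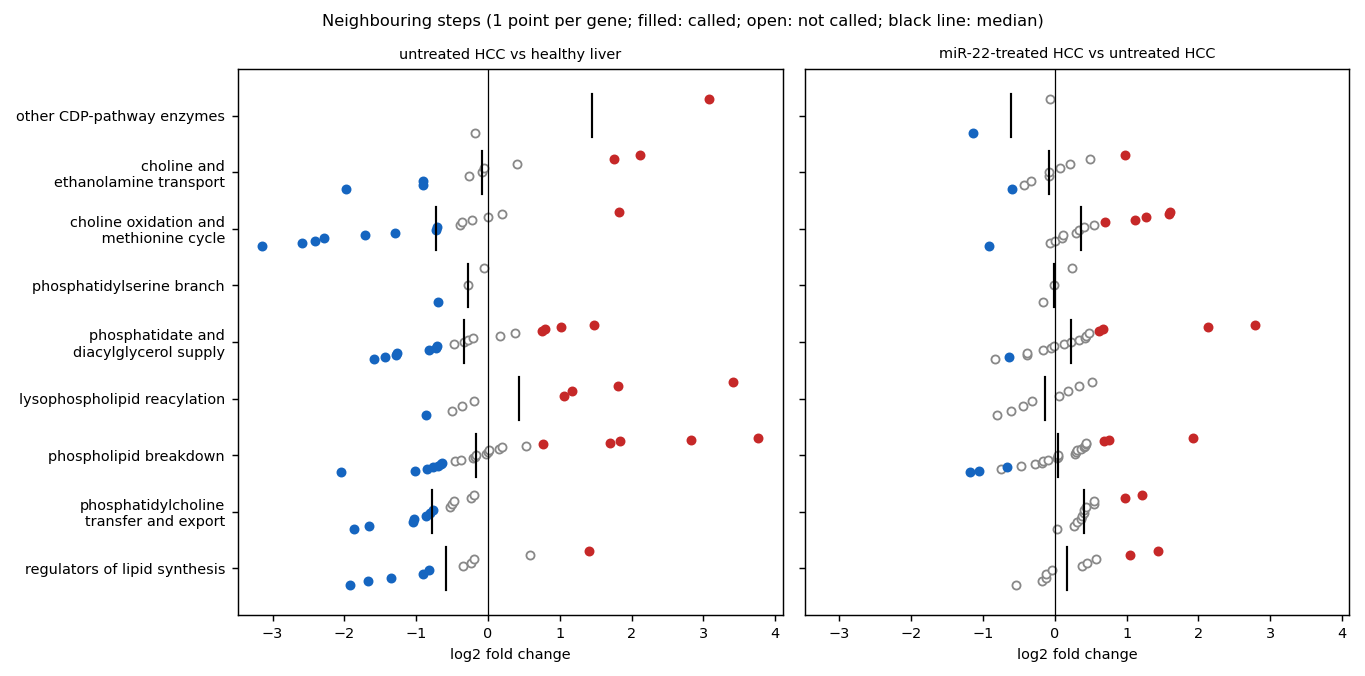
Log2 fold change (x axis) of each tested gene of the 9 neighbouring lists (y axis) in untreated HCC against healthy liver and in miR-22-treated against untreated HCC; filled red points are genes called higher, filled blue called lower, open grey not called, and black lines are list medians. Choline oxidation and the methionine cycle (median -0.72, then 0.37) and transfer and export (-0.78, then 0.40) lie to the left in the first panel and to the right in the second.

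Of 10 regulators of lipid synthesis, 1 was higher and 5 were lower in untreated HCC (2 and 3 with total counts alone), and 2 were higher with miR-22. Hif1a, the oxygen-sensitive factor that the study names as a suppressor of Chka, averaged 69.3 ± 2.77 CPM (SD, n = 3) in healthy livers, 104 ± 11.03 CPM in untreated HCC and 95.3 ± 3.16 CPM in treated HCC. Its log2 fold change was 0.58 ± 0.092 in untreated HCC, just under the fold threshold (adjusted p = 0.00015), and -0.12 ± 0.091 in treated against untreated HCC (adjusted p = 0.367). HIF1A is largely controlled as a protein, which transcript counts do not show. Ppara, a fatty acid receptor of hepatocytes, averaged 199 ± 23.2, 52.8 ± 10.6 and 143 ± 25.3 CPM, with log2 fold changes of -1.92 ± 0.16 (adjusted p = 8.29e-07) and 1.44 ± 0.16 (adjusted p = 0.000164). Mlxipl, the carbohydrate-responsive factor ChREBP, averaged 403, 127 and 261 CPM and changed by -1.67 ± 0.17 and 1.04 ± 0.17.

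Across the 9 libraries, Chka ran opposite to most of the other genes of the set. The Pearson r of its log2 CPM was -0.95 with Pemt, -0.94 with Cept1, -0.94 with Etnk2, -0.91 with Pcyt2, -0.88 with Pcyt1a, -0.63 with Etnppl, -0.50 with Chkb and -0.38 with Chpt1, and 0.67 with Etnk1. These describe 9 points that fall into 3 groups and share library composition, and the value for Cept1 carries the uncertainty given above. Among 10601 genes with a mean of at least 5 CPM, the 10 with the pattern most like Chka were Tnfaip1, Krt18, Eif6, Ppp2r5b, Cdc42se1, Exoc6b, Ajuba, Nfe2l2, Sowahb and Tprn, each with r of 0.989 or more over the same libraries. Krt18, a keratin of simple epithelia, averaged 184, 537 and 335 CPM in healthy, untreated and treated livers. Ajuba, a LIM-domain scaffold, averaged 8.19, 64.8 and 25.5 CPM, the steepest change of these 10, and Nfe2l2, the oxidative stress factor NRF2, 83.6, 189 and 126 CPM.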

How the data were processed

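The authors deposited whole-number counts per gene for the 9 libraries, not normalized, and a second table of normalized signal, the counts divided by a size factor per library. Per the paper's methods and the submitters' processing notes, libraries were non-directional and paired, reads were checked with FastQC 0.11.7, quantified with Salmon on GRCm39 and imported with tximport, and DESeq2 1.18 was used. Multiplying the deposited signal by its size factor gave whole reads for 100% of values within 0.05 read, and 100% equalled the counts. The counts were used throughout. A run of edgeR on the recovered reads, chosen after seeing the data, is therefore the same analysis (6417, 2167 and 3772 genes called) and no separate check.

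Tests were run in R 4.3.3 with edgeR 4.0.16 (TMM, filterByExpr, two-sided quasi-likelihood F test, Benjamini-Hochberg adjustment over 15717 genes, 9 libraries in 1 fit, no covariates). The SE is the size of the log2 fold change divided by the square root of F. DESeq2 1.42.0 and limma 3.58.1 were alternatives, besides other scalings, filters, samples and thresholds. On data simulated for miR-22-treated against untreated HCC (15415 genes), edgeR called 89 of 100 genes with a log2 fold change of 1 and 100 of 100 with 2, with 13 false calls. The simulation gave every gene the same dispersion, left scarce genes out of the changed ones and had no other difference between groups. These shares are therefore not the power reached in these livers. Ratios were formed from counts plus 1 and tested with scipy 1.17.1. Groups and replicate numbers came from sample titles. The labels do not say how the livers of a group relate beyond being separate samples. The edgeR p-values set differences between group means against the variation between these livers, estimated over all 9 libraries and moderated across genes. No 2 libraries of a group agreed within sampling noise (chi-square per degree of freedom of 6.15 or more).

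Members, lists and tests were chosen with earlier results of these data known. Named genes were the 10 members, up to 2 genes of each neighbouring list with the smallest p in each of the first 2 comparisons, Ppara and Hif1a, the 10 genes most correlated with Chka, and Akt1, Nras, Mir22hg and the markers for checking samples. Coordinates, lengths, overlaps and 3′ UTRs are from GENCODE M39 on GRCm39, and promoters and miR-22 from RefSeq on GRCm38.p6. The paper's methods name another GENCODE release for quantification, so gene models, lengths and overlaps here can differ from those the reads were counted on, and lengths per gene are annotated medians.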

Additional observations from a re-analysis of the deposited data

How the results depend on the processing

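Each member's log2 fold change was recomputed under 16 alternatives per comparison (the recovered reads are identical to the counts), 480 values in all. Of these, 443 kept their direction and their status as called or not called, 20 lost a call, 11 gained one and 6 changed sign. Only 6, 5 and 2 of the 10 members were called in the main fits of the 3 comparisons, so many values had no call to lose. The count of members called in treated against untreated HCC was 5, and 3 with total counts alone; leaving out 1 liver it ran from 3 (without untreated replicate 3) to 6. In treated HCC against healthy liver it was 2, and 1 with total counts alone and 5 with no fold threshold. Over all genes, 2167 calls in treated against untreated HCC became 3777 with no fold threshold and 1433 (without treated replicate 3) to 2660 with 1 liver left out, and 3772 calls in treated HCC against healthy liver became 5732 with no fold threshold. Signs changed with total counts alone for Chpt1 in untreated HCC against healthy liver (0.15) and Pcyt1a in treated against untreated HCC (-0.090). They changed with 1 liver left out for Chkb in treated HCC against healthy liver (-0.12 to 0.32), Etnppl in treated against untreated HCC (-0.026 to 1.13) and the log2 ratio of Pcyt1a to Pcyt2 in treated HCC against healthy liver (-0.20 to 0.015). The cause of these changes was not tested.

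Both HCC groups share 3 replicate numbers, but their livers with the same number did not deviate together (correlations of -0.23 to -0.12, against -0.019 to 0.13 for different numbers). Healthy livers share 2 numbers with each HCC group, and there the correlations of the same number were -0.026 to 0.020. The numbers were therefore not taken to pair the livers. With the number as a replicate block, members called were 5, 5 and 2 and genes called 5863, 1745 and 3044 in the 3 comparisons, and Etnppl lost its call (-1.05). With 3 livers a group the SE of the members' log2 fold changes ran from 0.086 (Cept1) to 0.41 (Etnppl), which limits the differences that could be detected.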
